A study of Homo sapiens with 18 samples.

Results

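The G1 cyclins, their kinases and the CIP/KIP inhibitors are described here as 10 genes of the 57773 in the count table. They were taken by symbol: the D-type cyclins CCND1, CCND2 and CCND3, their partners CDK4 and CDK6, the E-type cyclins CCNE1 and CCNE2, their partner CDK2, and the inhibitors CDKN1B and CDKN1C. RNA was measured by bulk RNA-Seq in A549 and H1299, both established human non-small cell lung cancer (NSCLC) cell lines. Each line carried a scrambled short hairpin RNA (shcon) or one of 2 hairpins against different regions of PPP2R2A, shPPP2R2A-1 or shPPP2R2A-2, which gave 6 groups of 3 libraries. PPP2R2A encodes B55α, a regulatory subunit of protein phosphatase 2A (PP2A). All cells were grown in the same serum-containing medium, and the labels name no drug. Each group was 1 hairpin in 1 line, and the labels number the repeats without saying whether they were separate cultures, so that the p-values reflect a spread that may be no more than technical.

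A cell that leaves G1 builds up D-type cyclins in answer to growth signals. These bind CDK4 or CDK6 and begin the phosphorylation of the retinoblastoma (RB) family of pocket proteins, which frees E2F transcription factors. E2F then drives the genes of DNA synthesis along with CCNE1 and CCNE2, whose proteins bind CDK2 and carry the cell into S phase. CDKN1B and CDKN1C bind and inhibit the cyclin E kinase, and also bind the cyclin D kinases. PP2A holoenzymes with B55 subunits remove phosphates that cyclin-dependent kinases have placed, RB family proteins among the substrates.

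The libraries held 35.7 M to 69.3 M counts each (M, 1000000). PPP2R2A was lower in every knockdown (KD) library than in every shcon library of its line: it stood at 48.5 to 90.0 counts per 1000000 (CPM) in A549 shcon and at 7.50 to 15.8 CPM in the 6 A549 KD libraries, and at 72.9 to 101 CPM in H1299 shcon against 6.53 to 17.5 CPM in the 6 H1299 KD libraries. CPM values here were scaled by the trimmed mean of M-values (TMM) over all 18 libraries. They take no account of gene length and are compared between libraries, not between genes. The residual PPP2R2A level was higher in H1299 for shPPP2R2A-2 than for shPPP2R2A-1 (log2 difference 1.08, adjusted p = 0.0073), and this difference missed the threshold in A549 (0.51, adjusted p = 0.181). CDKN2A, deleted in A549, had 0 counts in 8 A549 libraries and 57 counts in A549 shPPP2R2A-2 replicate 1, against 27.9 to 62.0 CPM in H1299. Of 7 genes listed as epithelial markers, CDH1, EPCAM and KRT19 were under 1 CPM in every H1299 library, EPCAM at no more than 0.356 CPM. The rest of that list, KRT8, KRT18, CDH2 and VIM, was at means of 171, 460, 80.2 and 2676 CPM in H1299 shcon. Summed over 5 leukocyte markers, A549 libraries held 3.55 to 15.5 CPM, highest in shcon and nearly all of it CD14, and H1299 libraries at most 0.237 CPM. Summed over 4 fibroblast markers, A549 shcon held 6.32 to 8.86 CPM and A549 KD 10.6 to 35 CPM, most of it COL1A1, with DCN under 1 CPM in every library. A549 shcon replicate 2 had the lowest levels of its group for PPP2R2A, CCND1, CDK4, CDK6, CCNE1, CCNE2, CDK2 and CDKN1B. It had the highest for CCND3 and CDKN1C. Of its counts 0.552% were mitochondrial, beside 0.178% and 0.183% in replicates 1 and 3. For the cyclins, kinases and inhibitors taken here, calls that were lost without a single library are given with the result concerned. Calls of other genes were not recomputed in this way.

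Of the 10 genes, 3 passed the test in A549 with shPPP2R2A-1 against shcon: CCND1 rose, and CDK4 and CCNE2 fell. In bulk RNA, less RNA per cell and fewer cells in the phase that makes it cannot be told apart. Throughout, genes were tested in edgeR by quasi-likelihood, p-values were adjusted over all genes of a fit after Benjamini and Hochberg, 0.05 was the threshold, and fold changes came from a fit per line. With shPPP2R2A-2 in A549, CCND2 and CCND3 rose, and CCNE2 and CDK2 fell. In H1299, where CCND2 and CDKN1C were too low to test, CCND1 rose and CDK4 and CCNE1 fell with shPPP2R2A-1. None of the 8 tested passed with shPPP2R2A-2 in H1299, where 3 had an unadjusted p under 0.05 and DESeq2 called 1 (CDKN1B). Over all genes tested in A549, shPPP2R2A-1 gave 7.34% higher and 6.34% lower, and shPPP2R2A-2 gave 10.6% higher and 9.94% lower. For H1299 the shares with shPPP2R2A-1 were 0.808% higher and 1.93% lower, and those with shPPP2R2A-2 were 1.37% higher and 1.72% lower. Both hairpins of a line were set against the same shcon libraries. Leaving out A549 shcon replicate 2 gave 6 calls with shPPP2R2A-1 in A549 in place of 3, and leaving out A549 shcon replicate 1 or shPPP2R2A-2 replicate 2 gave 2 with shPPP2R2A-2 in place of 4. The median log2 fold change over the tested members was -0.67 in A549 with shPPP2R2A-1, beside -0.02 over all genes, and -0.03 with shPPP2R2A-2, beside -0.01. In H1299 it was -0.16 with shPPP2R2A-1 and -0.15 with shPPP2R2A-2, beside -0.04 and -0.01 over all genes. CCNE2 was the member called with both hairpins in A549, and CCND1 and CDK4 were the members called with shPPP2R2A-1 in both lines. The H1299 call of CCND1 was lost in edgeR with the replicate number as a block (adjusted p = 0.0677). It was also lost in the fit of all 18 libraries (0.0666) and without any 1 library.

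**Figure D1:**
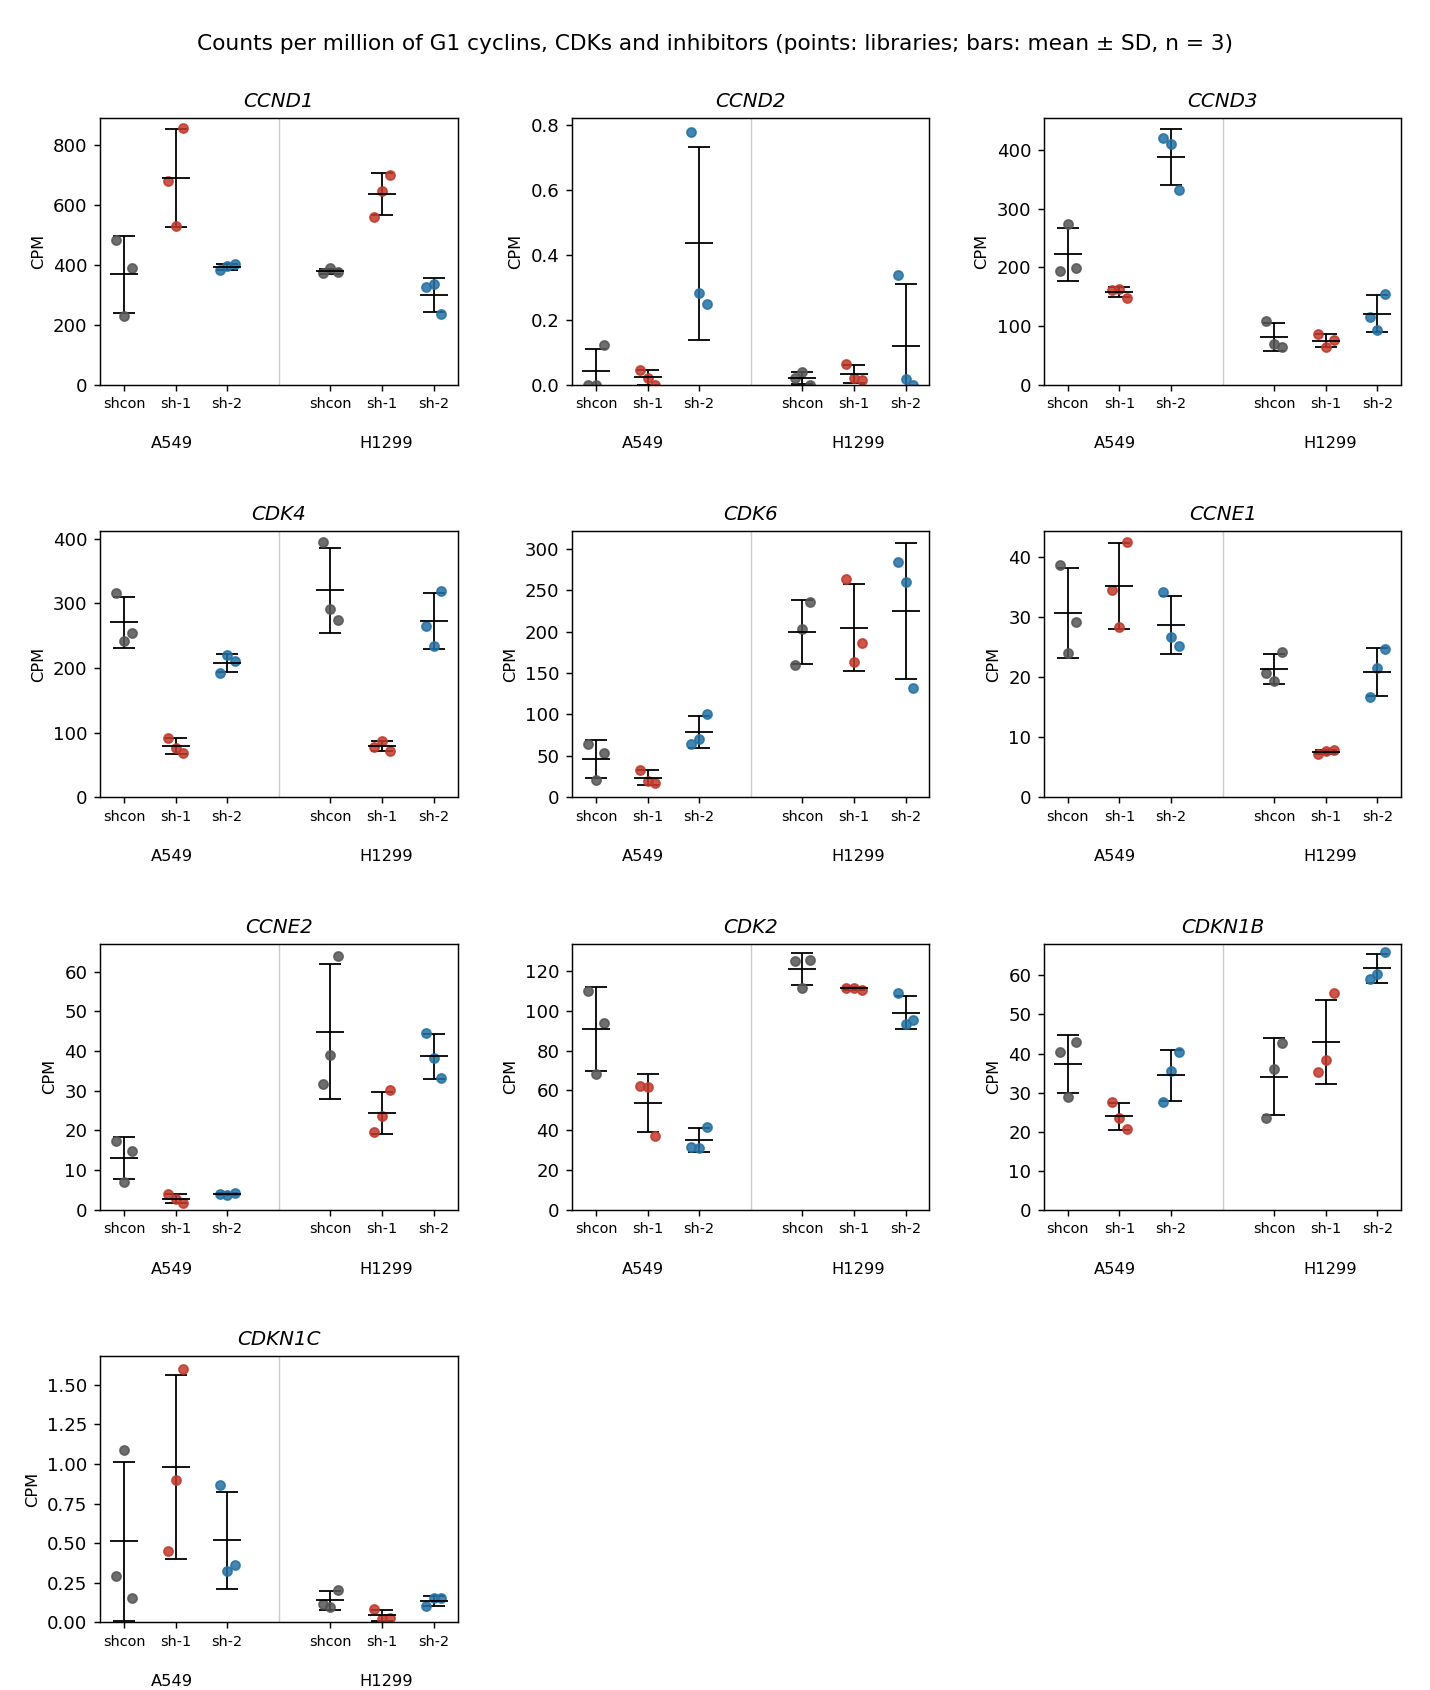
TMM-scaled CPM (y axis of each panel, from 0) of the 10 genes in the 6 groups, with sh-1 and sh-2 for shPPP2R2A-1 and shPPP2R2A-2. Points are libraries and bars are mean ± SD of 3 libraries. CDK4 lies between 68.0 and 91.8 CPM in the 6 shPPP2R2A-1 libraries and above 192 CPM in the other 12 libraries.

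CDK4, the kinase that D-type cyclins activate, fell with shPPP2R2A-1 in both lines and was called with shPPP2R2A-2 in neither. It stood at 316, 242 and 254 CPM in A549 shcon, at 91.8, 76.8 and 68.0 CPM with shPPP2R2A-1, and then at 193, 220 and 211 CPM with shPPP2R2A-2. All 3 shPPP2R2A-1 libraries lay far below the other 6, and the shPPP2R2A-2 libraries lay just under the lowest shcon library. In H1299 the levels were 396, 291 and 274 CPM with shcon, 77.7, 87.0 and 71.4 CPM with shPPP2R2A-1 and 264, 234 and 320 CPM with shPPP2R2A-2. There the shPPP2R2A-2 libraries overlapped with shcon and the shPPP2R2A-1 libraries did not overlap with either.

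CDK4 thus fell 3.38-fold with shPPP2R2A-1 in A549 (log2 fold change -1.76, SE 0.17, n = 3 against 3, adjusted p = 0.000462 in edgeR). The fall in H1299 was 4.22-fold (log2 -2.08, SE 0.20, adjusted p = 0.000606). With shPPP2R2A-2 the log2 fold change was -0.36 in A549 (95% interval -0.73 to 0.00, adjusted p = 0.148) and -0.27 in H1299 (-0.69 to 0.15, adjusted p = 0.501), neither past the threshold. The difference between the hairpins was itself past it in both lines, with shPPP2R2A-2 higher by 1.39 on the log2 scale in A549 (SE 0.17, adjusted p = 0.00061) and by 1.80 in H1299 (SE 0.20, adjusted p = 0.000528). The response to shPPP2R2A-1 differed between the lines by -0.28 (H1299 minus A549, 95% interval -0.82 to 0.26, adjusted p = 0.647). These 4 calls of CDK4 held with each library left out and in every other setting tried. The genes whose 4 log2 fold changes against shcon lay nearest to those of CDK4, of 11897 candidates, were IFNAR1, a chain of the type I interferon receptor (Euclidean distance 0.343), and VCP, an ATPase of protein turnover (distance 0.368). IFNAR1 was at -1.82 and -0.36 in A549 and at -1.79 and -0.10 in H1299 for the 2 hairpins in order.

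The promoter of CDK4 is shown because CDK4 was the member that fell with the same hairpin in both lines, and the promoter of CCNE1 because its response differed between the lines. Each runs from 250 bases before to 50 bases after a gene start of the RefSeq annotation of GRCh38.p14. The set of promoters used here was only a part of that annotation. The search for members also left out a whole chromosome, and the windows examined covered 5 of the 10 genes. Windows of CCND3, CDK6 and CDKN1B were searched too and are not printed. Promoters of the remaining members, CCNE2 among them, were not examined. The CDK4 promoter is at chr12:57752261-57752560 on the minus strand and the CCNE1 promoter at chr19:29811741-29812040 on the plus strand, written 5′ to 3′ in the direction of the gene. Capitals mark the E-box CACGTG in CDK4 and the GC box GGGCGG, on either strand, in CCNE1.
CDK4: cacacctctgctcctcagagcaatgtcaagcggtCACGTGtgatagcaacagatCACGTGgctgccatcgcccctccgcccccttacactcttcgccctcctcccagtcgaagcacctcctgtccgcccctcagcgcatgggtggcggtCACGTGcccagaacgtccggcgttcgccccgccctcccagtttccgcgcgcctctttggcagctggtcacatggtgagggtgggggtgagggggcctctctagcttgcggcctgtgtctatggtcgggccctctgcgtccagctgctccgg
CCNE1: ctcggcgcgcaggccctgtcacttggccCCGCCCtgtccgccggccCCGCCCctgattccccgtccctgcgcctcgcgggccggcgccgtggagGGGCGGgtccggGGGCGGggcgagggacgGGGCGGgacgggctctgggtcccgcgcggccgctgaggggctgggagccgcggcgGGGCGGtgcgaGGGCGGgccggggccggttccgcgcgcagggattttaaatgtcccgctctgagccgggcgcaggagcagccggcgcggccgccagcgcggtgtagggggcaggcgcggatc
The CDK4 window held 3 E-boxes. At least 1 was found in 7.26% and at least 3 in 0.094% of 35116 promoter windows of this length. It also held 3 GC boxes, not capitalised here. The CCNE1 window held 7 GC boxes and 0 E-boxes, and at least 1 GC box was found in 45% of all windows and at least 3 in 15.8%. The E2F forms TTTCCCGC, TTTCGCGC, TTTGCCGC and TTTGGCGC, searched on both strands, were in 3.31% of windows and in neither of these. Of the windows not printed, 1 of CDK6 held 1 E-box and 3 GC boxes, and another of CDK6 held neither. The CCND3 windows held 5, 4 and 0 GC boxes and the CDKN1B window 1, with no E-box. None of these windows held an E2F form. A match describes the letters and says nothing about binding.

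CDK4 shares exon sequence with TSPAN31, which lies on the opposite strand, over 1369 of its 3168 exon bases in GENCODE v29. The library kit keeps strand, but the strand setting of the counting was not given in the sources used here. TSPAN31, a tetraspanin, was at 35.2, 47.7 and 46.2 CPM in A549 shcon, at 26.1, 27.6 and 16.9 CPM with shPPP2R2A-1, and then at 54.9, 51.2 and 38.7 CPM with shPPP2R2A-2. In H1299 it was at 7.57, 12.5 and 9.41 CPM with shcon, 2.78, 3.83 and 2.75 CPM with shPPP2R2A-1 and 4.17, 11.3 and 4.57 CPM with shPPP2R2A-2. Like CDK4 it was lowest in the shPPP2R2A-1 libraries of each line, but in H1299 it was also below every shcon library in 2 shPPP2R2A-2 libraries, where CDK4 stood at 264 and 320 CPM. TSPAN31 fell with shPPP2R2A-1 in A549 (log2 -0.85, SE 0.23, adjusted p = 0.0318) and in H1299 (-1.70, SE 0.38, adjusted p = 0.0419), and was at 0.18 and -0.60 with shPPP2R2A-2 (adjusted p = 0.606 and 0.433). TSPAN31 was tested in the main fits only, and no library was left out for it. Whether reads of CDK4 or TSPAN31 were counted to the other was not tested. The genes that overlap CCND1 (ORAOV1, 497 of 4830 exon bases of CCND1), CCNE2 (INTS8, 1629 of 4397) and CDK2 (PMEL, 89 of 3894) on the opposite strand passed the test with neither hairpin in either line. CDK2 also shares 565 of its exon bases with the antisense gene AC025162.1, and CCND2 shares 989 of 7157 with AC008012.1 on the same strand, and values of these were not used here.

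**Figure D2:**
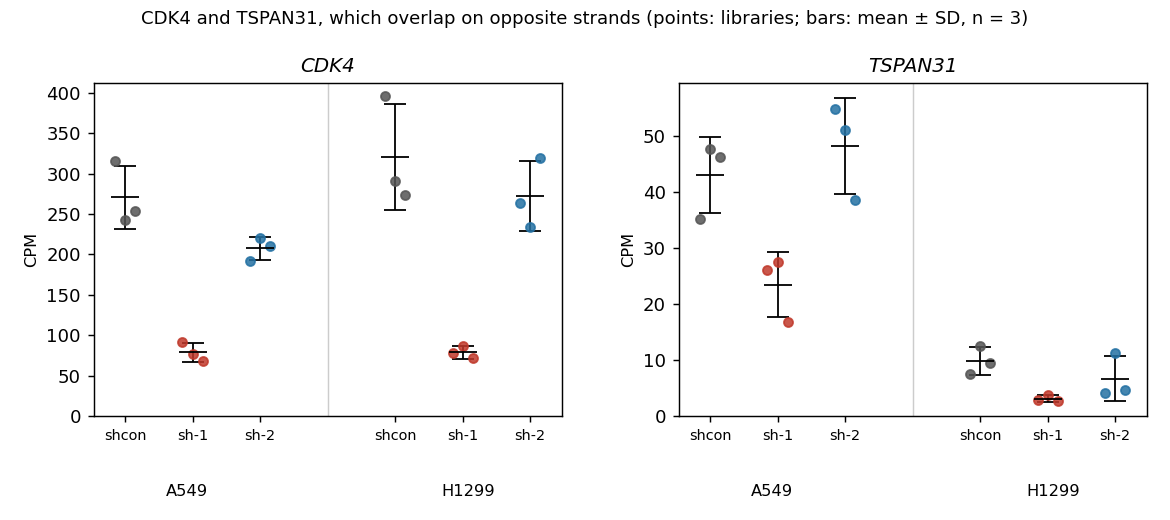
TMM-scaled CPM (y axes from 0) of CDK4 and of TSPAN31, its neighbour on the opposite strand, in the 6 groups. Points are libraries and bars are mean ± SD of 3 libraries, with sh-1 and sh-2 for the 2 hairpins. Both genes are lowest in the shPPP2R2A-1 libraries of each line, although in H1299 2 shPPP2R2A-2 libraries of TSPAN31, at 4.17 and 4.57 CPM, lie close to them.

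CCND1, the D-type cyclin with the closest tie to growth factor signalling, rose with shPPP2R2A-1 and not with shPPP2R2A-2. In A549 it was at 485, 231 and 390 CPM with shcon, 682, 531 and 860 CPM with shPPP2R2A-1 and 384, 395 and 403 CPM with shPPP2R2A-2. Every shPPP2R2A-1 library lay above every shcon library, while the shPPP2R2A-2 libraries fell inside the shcon range. In H1299 the values were 374, 389 and 376 CPM with shcon, 561, 648 and 702 CPM with shPPP2R2A-1 and 326, 338 and 234 CPM with shPPP2R2A-2. Here the shcon libraries were close together, the shPPP2R2A-1 libraries all above them and the shPPP2R2A-2 libraries all below.

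The rise of CCND1 with shPPP2R2A-1 was 1.91-fold in A549 (log2 0.94, SE 0.25, adjusted p = 0.0303) and 1.62-fold in H1299 (log2 0.70, SE 0.16, adjusted p = 0.046). With shPPP2R2A-2 the log2 fold change was 0.12 in A549 (adjusted p = 0.76) and -0.38 in H1299 (adjusted p = 0.234). Set directly against shPPP2R2A-1, shPPP2R2A-2 was lower in A549 (log2 difference -0.81, SE 0.25, adjusted p = 0.0437) and in H1299 (-1.07, SE 0.16, adjusted p = 0.00242). In A549 the rise was not called without shcon replicate 3 (adjusted p = 0.0832) or without shPPP2R2A-1 replicate 3 (0.0855), and the hairpin difference was not called without replicate 1 or 3 of shPPP2R2A-1 or any 1 shPPP2R2A-2 library (0.0805 to 0.128). In H1299 the rise was not called without any 1 of the 6 libraries (0.0696 to 0.195). It was also not called with the replicate number as a block (0.0677) or in the fit of all 18 libraries (0.0666). The hairpin difference in H1299 was called in every setting. PPIF, a mitochondrial prolyl isomerase, and WNT10B, a WNT ligand, had the fold changes nearest to those of CCND1 (distances 0.153 and 0.208 over the 4 log2 fold changes).

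CCND3, the D-type cyclin most used by lymphoid cells, moved in the opposite direction to CCND1 between the hairpins in A549. Its levels were 193, 274 and 199 CPM with shcon, 162, 163 and 148 CPM with shPPP2R2A-1 and 420, 409 and 332 CPM with shPPP2R2A-2. The 3 groups did not overlap, with shPPP2R2A-1 lowest and shPPP2R2A-2 highest. CCND3 rose 1.76-fold with shPPP2R2A-2 (log2 0.82, SE 0.19, adjusted p = 0.0121), while the fold change of -0.48 with shPPP2R2A-1 missed the threshold (95% interval -0.89 to -0.07, adjusted p = 0.112). The hairpin difference of 1.29 was past it (SE 0.19, adjusted p = 0.00142). The rise was not called without shcon replicate 1 (adjusted p = 0.0505) or 3 (0.0588), or without shPPP2R2A-2 replicate 2 (0.0554). In H1299 the levels were 108, 68.96 and 64.4 CPM with shcon, 86.3, 63.4 and 75.2 CPM with shPPP2R2A-1 and 115, 93.0 and 155 CPM with shPPP2R2A-2. These groups overlapped and neither hairpin was called (log2 -0.16, adjusted p = 0.767, and 0.55, adjusted p = 0.28).

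CCND2, the third D-type cyclin, was close to absent from both lines. Counts of CCND2 were 0, 0 and 7 in A549 shcon, 2, 1 and 0 with shPPP2R2A-1 and 35, 13 and 11 with shPPP2R2A-2, which is a mean of 0.436 CPM for shPPP2R2A-2. The fitted log2 fold change of 3.28 for shPPP2R2A-2 (SE 1.03, adjusted p = 0.0429) and the hairpin difference of 4.12 (SE 1.16, adjusted p = 0.0306) rest on these counts and on the prior count of the fit. Each was lost in several settings. Without shPPP2R2A-2 replicate 1, the A549 library with 57 counts of CDKN2A, the adjusted p was 0.175 for the first and 0.112 for the second. The part of that library in the result was not tested further. The fold change against shcon was also lost without shcon replicate 1 (0.122) or 2 (0.0792), without shPPP2R2A-2 replicate 2 (0.0821) or 3 (0.0525), and was 7.32 on the log2 scale without shcon replicate 3, where no shcon count was left. The hairpin difference was also lost without replicate 1 (0.0605), 2 (0.112) or 3 (0.0684) of shPPP2R2A-1 and without replicate 2 of shPPP2R2A-2 (0.0628). In H1299 the counts were 1, 2 and 0 with shcon, 3, 1 and 1 with shPPP2R2A-1 and 20, 1 and 0 with shPPP2R2A-2, so that 1 library held most of them.

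CDK6, the other cyclin D kinase, was called with neither hairpin against shcon in the main edgeR fits. In A549 it was at 64.8, 20.3 and 53.3 CPM with shcon, 33.4, 20.1 and 16.8 CPM with shPPP2R2A-1 and 64.5, 69.8 and 101 CPM with shPPP2R2A-2. The shcon libraries spread widely, replicate 2 lying among the shPPP2R2A-1 libraries, and neither hairpin was called (log2 -0.94, adjusted p = 0.111, and 0.79, adjusted p = 0.149). Without that shcon library the log2 fold change with shPPP2R2A-1 was -1.27 and was called (adjusted p = 0.0155), and without the filter on low counts both hairpins were (0.000464 and 0.00456). The 2 hairpins lay apart, by 1.74 on the log2 scale (SE 0.38, adjusted p = 0.00947). In H1299 the values were 159, 204 and 236 CPM with shcon, 264, 164 and 187 CPM with shPPP2R2A-1 and 285, 260 and 132 CPM with shPPP2R2A-2. They overlapped throughout, at log2 fold changes of -0.01 (adjusted p = 0.994) and 0.14 (adjusted p = 0.842).

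CCNE1, an E-type cyclin and activator of CDK2, fell with shPPP2R2A-1 in H1299 and was not called in the other 3 comparisons with shcon. Its H1299 levels were 20.7, 19.3 and 24.2 CPM with shcon, 7.16, 7.66 and 7.79 CPM with shPPP2R2A-1 and 16.7, 21.5 and 24.6 CPM with shPPP2R2A-2. The shPPP2R2A-1 libraries lay within 1 CPM of each other and below the rest, and the other groups overlapped. The fall was 2.93-fold (log2 -1.55, SE 0.19, adjusted p = 0.00222), against a log2 fold change of -0.06 with shPPP2R2A-2 (adjusted p = 0.899), and the hairpins differed by 1.49 (SE 0.19, adjusted p = 0.000937). In A549 CCNE1 was at 38.8, 24.1 and 29.2 CPM with shcon, 34.5, 28.3 and 42.6 CPM with shPPP2R2A-1 and 34.3, 26.8 and 25.2 CPM with shPPP2R2A-2. These overlapped, at log2 fold changes of 0.22 (95% interval -0.26 to 0.71, adjusted p = 0.537) and -0.07 (adjusted p = 0.852). The response of CCNE1 to shPPP2R2A-1 differed between the lines by -1.72 on the log2 scale (H1299 minus A549, SE 0.29, adjusted p = 0.00878), and this held in all alternatives.

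CCNE2, the second E-type cyclin and like CCNE1 a target of E2F, fell with both hairpins in A549. It stood at 17.2, 7.03 and 14.7 CPM in A549 shcon, at 4.03, 2.74 and 1.73 CPM with shPPP2R2A-1, and then at 3.89, 3.79 and 4.31 CPM with shPPP2R2A-2. All 6 KD libraries lay below all shcon libraries. The falls were 4.48-fold (log2 -2.16, SE 0.36, adjusted p = 0.00484) and 3.18-fold (log2 -1.67, SE 0.36, adjusted p = 0.00848), both called in every alternative, and the hairpins differed by 0.50 (adjusted p = 0.368). In H1299 CCNE2 was at 31.7, 39.0 and 63.9 CPM with shcon, 19.6, 23.5 and 30.2 CPM with shPPP2R2A-1 and 44.6, 38.3 and 33.2 CPM with shPPP2R2A-2. The shPPP2R2A-1 libraries were the lowest of the line, but their log2 fold change of -0.92 missed the threshold in edgeR (SE 0.25, adjusted p = 0.0788) and passed it in DESeq2 (0.0177) and without the filter on low counts (0.00208), and shPPP2R2A-2 was at -0.24 (adjusted p = 0.68). The responses of CCNE2 did not pass the main edgeR test of a difference between lines (1.29, adjusted p = 0.186, and 1.50, adjusted p = 0.119). Both passed without the filter (0.0168 and 0.00385), and that to shPPP2R2A-2 also without A549 shcon replicate 2 (0.0403). SAPCD2 and TXNDC16 had fold changes nearest to those of CCNE2, at distances of 0.452 and 0.635.

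CDK2, the kinase of the E-type cyclins, was lower with shPPP2R2A-2 in A549. The levels in A549 were 110, 68.3 and 94.0 CPM with shcon, 62.4, 61.5 and 36.9 CPM with shPPP2R2A-1 and 31.8, 31.2 and 41.8 CPM with shPPP2R2A-2. Every KD library was below every shcon library. CDK2 fell 2.56-fold with shPPP2R2A-2 (log2 -1.36, SE 0.24, adjusted p = 0.00331), and its log2 fold change with shPPP2R2A-1 was -0.73 (SE 0.24, adjusted p = 0.0599). The latter passed under DESeq2 (0.0315), and in edgeR without the filter on low counts (0.00932), in the fit of all 18 libraries (0.0215) and without shcon replicate 2 (0.0297). The hairpin difference of -0.62 was not called (adjusted p = 0.0902) except in the fit of all 18 libraries (0.0337), without the filter (0.0386) or without shPPP2R2A-1 replicate 3 (0.0175). H1299 levels were 125, 112 and 126 CPM with shcon, 112, 112 and 111 CPM with shPPP2R2A-1 and 109, 93.4 and 95.2 CPM with shPPP2R2A-2. The H1299 fold changes of -0.17 (adjusted p = 0.516) and -0.32 (adjusted p = 0.225) were not called, and the difference between the lines in the response to shPPP2R2A-2 was 1.11 (adjusted p = 0.074).

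CDKN1B, the inhibitor of cyclin E and CDK2 that rises in resting cells, was called in no comparison by the main edgeR fits. It was at 40.3, 28.8 and 42.9 CPM in A549 shcon, 27.6, 23.5 and 20.8 CPM with shPPP2R2A-1 and 27.5, 35.5 and 40.4 CPM with shPPP2R2A-2. The shPPP2R2A-1 libraries lay under the shcon libraries (log2 -0.61, SE 0.21, adjusted p = 0.0687, called by DESeq2 at 0.044 and by edgeR without shcon replicate 2 at 0.0324) and the shPPP2R2A-2 libraries among them (-0.09, adjusted p = 0.78). In H1299 CDKN1B was at 23.5, 36.2 and 42.7 CPM with shcon, 35.3, 38.3 and 55.4 CPM with shPPP2R2A-1 and 59.1, 60.3 and 65.9 CPM with shPPP2R2A-2. There the shPPP2R2A-2 libraries were all above the rest, at a log2 fold change of 0.83 that edgeR did not call (SE 0.22, adjusted p = 0.0761) and DESeq2 did (0.0131), as did edgeR in the fit of all 18 libraries (0.0339) and without the filter on low counts (0.00847), while shPPP2R2A-1 was at 0.29 (adjusted p = 0.504).

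CDKN1C, an imprinted inhibitor of the same family, was low everywhere. It was at 0.291, 1.09 and 0.156 CPM in A549 shcon, 0.450, 0.899 and 1.60 CPM with shPPP2R2A-1 and 0.868, 0.325 and 0.359 CPM with shPPP2R2A-2. The groups overlapped and neither hairpin was called (log2 0.94, adjusted p = 0.415, and 0.01, adjusted p = 0.993). In H1299 no library held more than 13 counts of CDKN1C.

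**Figure D3:**
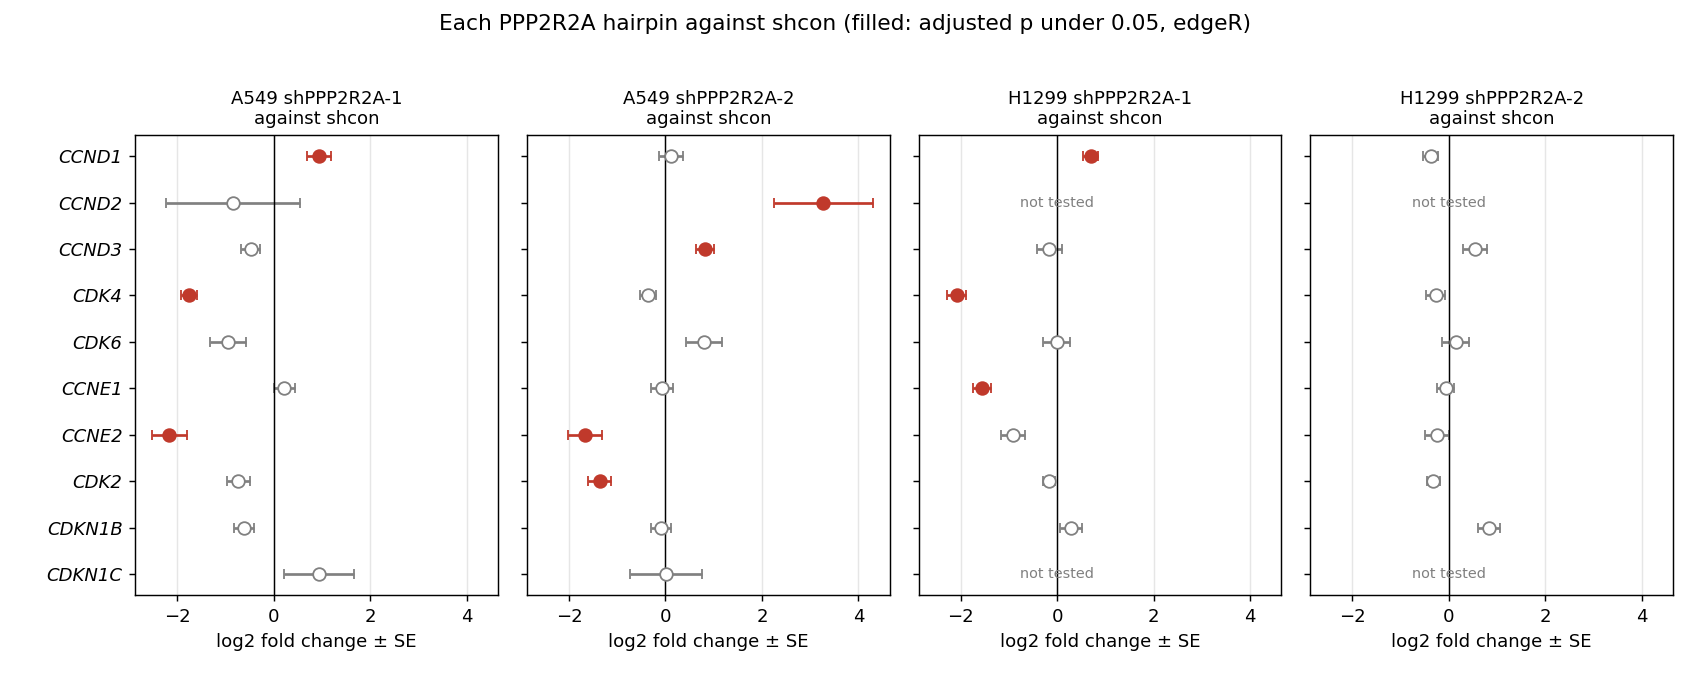
Log2 fold change of each gene (rows) against shcon for each hairpin and line (panels, 1 shared x axis), from edgeR fits per line with 3 libraries a group. Error bars are SE and filled points passed an adjusted p of 0.05. CDK4 lies at -1.76 and -2.08 with shPPP2R2A-1 and within 0.36 of 0 with shPPP2R2A-2, and CCNE2 is left of 0 in all panels, past the threshold in both A549 panels.

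The hairpin comparison within each line asked whether 2 hairpins against 1 gene gave the same member levels. In A549, 4 of the 10 members were higher with shPPP2R2A-2 than with shPPP2R2A-1 (CCND2, CCND3, CDK4 and CDK6) and CCND1 was lower, where 9.54% of all genes were higher and 8% lower. In H1299, CDK4 and CCNE1 were higher and CCND1 lower of 8 tested, where 9.48% of all genes were higher and 6.77% lower. The median log2 difference over the members was 0.51 in A549 and 0.61 in H1299, beside -0.02 and 0.03 over all genes. CDK4 and CCND1 were thus called in the same direction in both lines. In A549 the number called was 3 without shPPP2R2A-1 replicate 1, or without replicate 1 or 2 of shPPP2R2A-2. PPP2R2A itself was higher with shPPP2R2A-2 in H1299 by 1.08 on the log2 scale, its difference of 0.51 in A549 was not called (95% interval -0.04 to 1.06, adjusted p = 0.181), and its part in these differences was not tested.

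**Figure D4:**
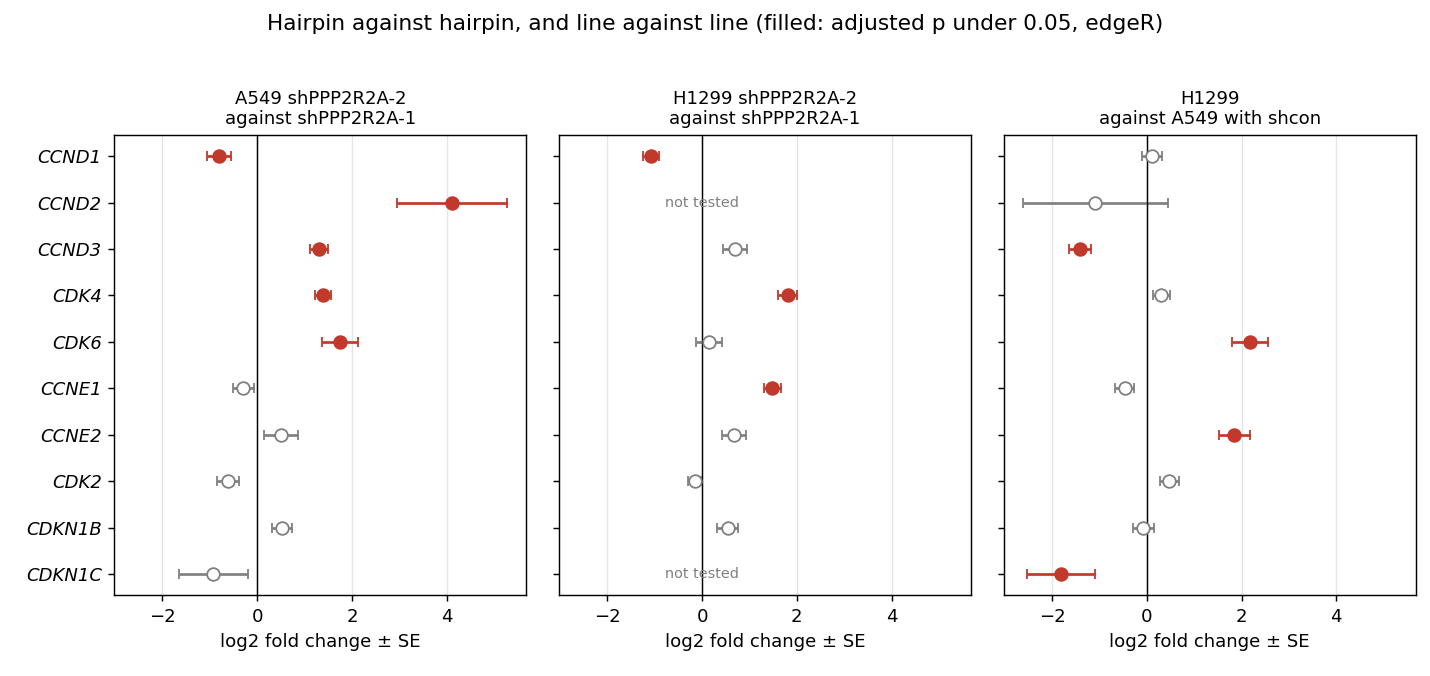
Log2 difference of each gene (rows) between the hairpins in A549 and in H1299, and between H1299 and A549 with shcon (panels, 1 shared x axis), from edgeR with 3 libraries a group. Error bars are SE and filled points passed an adjusted p of 0.05. CDK4 is right of 0 and CCND1 left of 0 in both hairpin panels, and CDK6 is at 2.18 in the line panel.

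With shcon, the lines themselves differed in 4 of the 10 members. CDK6 was 4.53-fold higher in H1299 than in A549 (log2 2.18, SE 0.37, adjusted p = 7.08e-05) and CCNE2 3.60-fold higher (1.85, SE 0.32, adjusted p = 8.42e-05). CCND3 was 2.65-fold lower in H1299 (log2 -1.41, SE 0.23, adjusted p = 5.67e-05), and CDKN1C was lower (log2 -1.81, SE 0.71, adjusted p = 0.0379) at low counts, a call lost without A549 shcon replicate 2 (log2 -0.57, adjusted p = 0.525) or H1299 shcon replicate 1 (0.0912) or 2 (0.116). Among all genes 25.4% were higher and 30.6% lower in H1299. CCND1 (0.11, adjusted p = 0.695), CDK4 (0.31, adjusted p = 0.162) and CDKN1B (-0.08, adjusted p = 0.791) were not called, nor were CDK2 (0.47, adjusted p = 0.0524) and CCNE1 (-0.46, adjusted p = 0.062). CDK2 passed, however, in DESeq2 (0.048), with median-of-ratios factors (0.0468) and without A549 shcon replicate 1 (0.0162), and CCNE1 without A549 shcon replicate 2 (0.031). The median over the members was 0.01, beside -0.07 over all genes. The line and any difference in how the lines were handled cannot be told apart.

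Tested as a difference of responses between lines, CCNE1 was the only member called for shPPP2R2A-1, where 0.287% of all genes were higher and 0.807% lower in H1299 than in A549. For shPPP2R2A-2 edgeR called none of the 10, 3 had an unadjusted p under 0.05 and DESeq2 called 1 (CDK2), where 0.345% of all genes were higher and 0.297% lower. Without A549 shcon replicate 2, edgeR called CCNE2 and CDK2 for shPPP2R2A-2 (adjusted p = 0.0403 and 0.0387). Without the filter on low counts, edgeR also called CCNE2 for both hairpins (0.0168 and 0.00385), CDK6 for shPPP2R2A-1 (0.0353) and CDK2 for shPPP2R2A-2 (0.0229). By the main fit, a member called in 1 line and not in the other is therefore not shown to differ between them, CCNE1 excepted. The median difference over the members was 0.49 for shPPP2R2A-1 and 0.03 for shPPP2R2A-2, beside 0.02 and 0.10 over all genes.

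Genes around the G1 kinases were read from lists, in the main edgeR fits only. Their calls were not recomputed with a library left out or in any other alternative. Over all genes tested, the 2 hairpins in order gave 6.34% and 9.94% lower in A549 and 1.93% and 1.72% lower in H1299. The shares higher were 7.34% and 10.6% in A549 and 0.808% and 1.37% in H1299. Medians over all genes were -0.02 and -0.01 in A549 and -0.04 and -0.01 in H1299. The S and M phase cyclins and CDKs, whose proteins act after the cyclin E step, had 6 tested members in each line, of which 5 fell with each hairpin in A549, 2 with shPPP2R2A-1 in H1299 and 0 with shPPP2R2A-2 in H1299 (0 also at an unadjusted p under 0.05). CCNA2, the cyclin of S phase, fell in A549 by 1.22 and 1.78 on the log2 scale with the 2 hairpins (edgeR adjusted p = 0.0393 and 0.00596) and was at -0.35 and -0.26 in H1299. CDK1, the kinase of mitotic entry, fell by 1.10 and 1.26 in A549, and CCNB1, its partner, fell in A549 by 0.88 and 1.26 and with shPPP2R2A-1 in H1299 by 0.87. CCNF, a cyclin that marks proteins for degradation, fell by 1.26 and 1.46 in A549. The median log2 fold change of this list was -1.17 and -1.26 in A549 and -0.62 and -0.25 in H1299.

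Of 14 pocket proteins and G1/S targets of E2F, 7 fell with shPPP2R2A-1 and 11 with shPPP2R2A-2 in A549, and none rose. Among all genes tested in A549, 6.34% and 9.94% fell. In H1299 none passed with shPPP2R2A-1 in edgeR, where 4 had an unadjusted p under 0.05, and 1 fell with shPPP2R2A-2. Among all genes tested in H1299, 1.93% and 1.72% fell. The median was -0.84 and -1.44 in A549 and -0.33 and -0.44 in H1299. MCM2, a subunit of the replicative helicase, fell in A549 (log2 fold changes -0.95 and -1.995 with the 2 hairpins), as did its partner MCM5 (-1.23 and -1.77). CDC6, which loads that helicase, fell by 0.92 and 1.73. E2F2, an activating E2F, fell by 1.11 and 2.80 in A549 and by 1.08 with shPPP2R2A-2 in H1299. In A549 CCNE2 fell with both hairpins as these did, whereas CCNE1 was called with neither.

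The remaining CDK inhibitors did not move as a group. CDKN1A, the CIP/KIP member that p53 induces, rose in A549 with both hairpins (log2 1.81, adjusted p = 0.00144, and 2.79, adjusted p = 7.76e-05 in edgeR) and was at 0.41 (adjusted p = 0.51) and 1.24 (adjusted p = 0.0684) in H1299. CDKN2C, an INK4 inhibitor of CDK4 and CDK6, fell by 2.09 with shPPP2R2A-1 in A549 and was at -0.21 with shPPP2R2A-2. CDKN2D, another INK4 inhibitor, rose by 1.06 with shPPP2R2A-2 in A549. CDKN3, a phosphatase that acts on CDKs, fell by 0.94 and 1.14 in A549. Of the 4 tested in A549, shPPP2R2A-1 raised 1 and lowered 2 (7.34% and 6.34% of all genes), and shPPP2R2A-2 raised 2 and lowered 1 (10.6% and 9.94%). None of the 6 tested in H1299 passed in edgeR with either hairpin, although 3 had an unadjusted p under 0.05 with each.

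Among 14 regulators of cyclin-CDK activity and turnover, none passed with shPPP2R2A-1 in A549 (1 at an unadjusted p under 0.05 in edgeR). With shPPP2R2A-2 in A549 1 rose and 4 fell, where 10.6% of all genes rose and 9.94% fell. FBXW7, the ubiquitin ligase subunit for cyclin E, rose by 0.71, and CDC25A, the phosphatase that activates CDK2, fell by 0.94, CKS1B, a CDK-binding subunit, by 1.27 and CUL4A, a ubiquitin ligase scaffold, by 0.88. In H1299, CDC25A rose by 0.76 with shPPP2R2A-1 and CUL4A fell by 0.70 with shPPP2R2A-2. Of 10 genes that feed into the D-type cyclins and CDKN1B, FOSL1, an AP-1 subunit, rose by 2.62 with shPPP2R2A-1 in A549 (SE 0.52). Its libraries there were far apart, at 103, 143 and 481 CPM, beside 23.55 to 60.55 CPM with shcon. TCF7L2, a factor of WNT signalling, fell by 0.95 with shPPP2R2A-1 in A549. FOXO1, which drives CDKN1B, fell by 1.03 with shPPP2R2A-2 in A549. JUN, the other main AP-1 subunit, rose by 1.51 with shPPP2R2A-1 in H1299. None of the 10 passed with shPPP2R2A-2 in H1299 in edgeR, where 1 had an unadjusted p under 0.05.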

How the data were processed

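RNA-Seq was performed on 18 libraries of A549 and H1299 cells. Per the labels, stranded mRNA libraries were sequenced as paired ends, and the submitters' processing notes name STAR 2.7.3a, Bowtie2, HTSeq 0.11.2, Cufflinks 2.2.1, DESeq2, cutadapt 2.5 and FastQC 0.11.8 without roles or order, and GRCh37/hg19 as the build. The authors deposited raw read counts per gene, without normalization, which were used for every result. A second set of deposited columns holds a normalized signal, equal to the authors' counts divided by 1 factor per library (largest relative spread 9.9e-15) and used only in this check. No other columns of the table were used.

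Counts were fitted per line in edgeR 4.0.16 (R 4.3.3) by the quasi-likelihood test after TMM scaling and the default filter on low counts, which left 17229 genes in A549 and 15972 in H1299. All 18 libraries were fitted together (18827 genes) for the comparison of lines and for differences of responses. P-values were adjusted by the Benjamini-Hochberg method over all genes of a fit, with 0.05 as the threshold, and the SE was the fold change over the square root of F. Printed CPM values use TMM factors over all 18 libraries, so that a ratio of mean CPM can differ from a fitted fold change. No replicate was a copy of another by a chi-square test of counts. The numbers in the labels were checked for pairing: of 18 pairs of libraries with the same number, 10 deviated together with a correlation over 0.1 (range -0.354 to 0.323). In H1299 all 3 pairs of shcon with shPPP2R2A-1 (0.125 to 0.199) and all 3 of shPPP2R2A-1 with shPPP2R2A-2 (0.169 to 0.315) were over 0.1. The pairs of H1299 shcon with shPPP2R2A-2 were not all over it (-0.354 to 0.323). The main fits took the numbers as pairs in no comparison, these of H1299 included. A fit with the number as a block was an alternative, and its value is printed where it changes a call of a member. The steps were tested on simulated data. Alternatives were DESeq2 1.42.0, median-of-ratios factors, no filter, the replicate block, 1 fit over all libraries and leaving out each library. They were run for the members and for the number of genes called, not for other single genes.

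The members and the gene lists were chosen with earlier results of these data known. All 10 members are described. Further genes named were the 2 with fold changes nearest to a member called in at least 2 of the 4 comparisons with shcon, among genes with a mean count of at least 100, and up to 4 genes of each list. Exon overlaps were taken from GENCODE v29 and promoters from RefSeq GRCh38.p14, which is not the build of the counts.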

Additional observations from a re-analysis of the deposited data

Results flagged for a closer look

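The response of CCNE1 to shPPP2R2A-1 differed between the lines by -1.72 on the log2 scale (H1299 minus A549, SE 0.29, 3 libraries a group, adjusted p = 0.00878 in the edgeR fit over 18 libraries), which a test of the difference itself found. All 3 H1299 shPPP2R2A-1 libraries were below all H1299 shcon libraries, while in A549 the groups overlapped.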

How the results depend on the processing

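The number of members called was 3 with shPPP2R2A-1 in A549 and became 5 with DESeq2 and 5 without the filter on low counts. With shPPP2R2A-2 in H1299 it was 0 and became 1 with DESeq2, 1 without the filter and 1 in the fit of all libraries. Without the filter it was 5 between the hairpins in H1299, 3 for the difference of shPPP2R2A-1 responses and 2 for that of shPPP2R2A-2 responses, where DESeq2 gave 1. With the replicate block, 3 were called between the hairpins in A549 in place of 5 (CCND1 0.052 and CCND2 0.0567 were lost), CCND1 with shPPP2R2A-1 in H1299 was no longer called (adjusted p = 0.0677), nor were CCND2 with shPPP2R2A-2 in A549 (0.0842) and CDKN1C between the lines (log2 -1.43, 0.323), CCNE1 between the lines was called (log2 -0.76, 0.0213), and the block changed no other call of a member. Leaving out 1 library at a time gave 2 to 6 calls with shPPP2R2A-1 and 2 to 3 with shPPP2R2A-2 in A549, 3 to 4 between the hairpins in A549 and 0 to 2 for the difference of shPPP2R2A-2 responses. The cause was not tested. Signs turned for uncalled fold changes, namely CDK6 with shPPP2R2A-1 in H1299 (0.017 with DESeq2, 0.015 with median-of-ratios factors, 0.048 in the fit of all libraries), CCNE1 in the difference of shPPP2R2A-2 responses (-0.010 with DESeq2 and with median-of-ratios factors), CCND2 between the lines (0.013 with the block) and CDKN1C with shPPP2R2A-2 in A549 (-0.003 in the fit of all libraries). Without 1 library, uncalled values that turned sign ranged as follows. With shPPP2R2A-1 in A549 CCND2 ranged from -1.69 to 3.21, and with shPPP2R2A-2 CCND1 ranged from -0.072 to 0.36, CCNE1 from -0.19 to 0.12, CDKN1B from -0.20 to 0.070 and CDKN1C from -0.57 to 1.30. With shPPP2R2A-1 in H1299 CCND3 ranged from -0.30 to 0.16 and CDK6 from -0.24 to 0.13, with shPPP2R2A-2 CCNE1 from -0.19 to 0.068, CCNE2 from -0.42 to 0.081 and CDK6 from -0.069 to 0.43, and between the hairpins CDK6 from -0.064 to 0.41. Between the lines CCND1 ranged from -0.13 to 0.38, CCND2 from -1.93 to 3.08 and CDKN1B from -0.25 to 0.12. For the difference of shPPP2R2A-1 responses CCND1 ranged from -0.47 to 0.045 and CCND2 from -2.64 to 2.38, and for that of shPPP2R2A-2 responses CCND2 ranged from -4.78 to 0.23, CCND3 from -0.44 to 0.10, CCNE1 from -0.25 to 0.22, CDK4 from -0.082 to 0.37 and CDKN1C from -1.27 to 0.44. Of the recomputed fold changes of single members, 898 kept their direction and side of the threshold, 36 no longer passed it, 32 newly passed it and 46 changed sign. Over all genes, the number called with shPPP2R2A-1 in A549 was 2357, and 3604 without the filter. In H1299 it was 437 with shPPP2R2A-1 (1353 with DESeq2, 1381 without the filter) and 493 with shPPP2R2A-2 (1265 and 1169), and for the differences of responses it was 206 (735 and 904) and 121 (674 and 811). Leaving out 1 library gave 918 to 2731 and 1527 to 4483 genes for the 2 hairpins in A549 (3533 for the second with all libraries), 63 to 281 and 87 to 1217 in H1299, 1449 to 3632 between the hairpins in A549 (3023 with all libraries), 985 to 2792 between them in H1299 (2595), and 31 to 278 and 7 to 216 for the differences of responses. CCND2 and CDKN1C are limited by their counts.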
